A study of Mus musculus with 2 samples.

Results

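Peaks of the transcription factor TCF12 at the promoters of divergent gene pairs were set against peaks at promoters that serve a single gene. A divergent pair was defined as a minus-strand and a plus-strand protein-coding gene that point away from each other, with 5' ends at most 1 kb apart on the mm10 build. A peak belonged to such a pair when its summit, the position of highest signal, lay within 1 kb of both 5' ends. Of 35369 optimal peaks on the 19 autosomes, 885 (2.5%) met this rule. A further 8814 peaks (24.9%) lay at single promoters, within 1 kb of exactly 1 protein-coding 5' end that had no other within 1 kb. Another 588 peaks within 1 kb of a 5' end (1.66%) met neither definition, being near several 5' ends that form no pair or near only 1 gene of a pair. These and 25082 peaks over 1 kb from every 5' end (70.9%) were counted and left out of the comparison. The rule used positions of genes and summits only, and no signal value.

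TCF12, or HEB, is a basic helix-loop-helix E protein that binds E-boxes as a dimer and takes part in the development of lymphocytes. Divergent promoters, also called bidirectional promoters, start transcription outward from a short shared stretch that is often rich in CpG dinucleotides and poor in TATA boxes. In mammals they are known for genes of DNA repair, mitochondria, translation and for paired histone genes.

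ChIP-seq with an antibody to TCF12 was done in CH12.LX, an immortalised mouse line of a B-cell lymphoma from a B10.H-2aH-4bp/Wts mouse. There was 1 group of 2 biological replicates of that line, with no treatment and no second genotype, so results from it need not hold for normal B cells. The optimal list was derived from both replicates and cut at a threshold of the irreproducible discovery rate (IDR), which rates how well the ranks of peaks repeat. The signal of a peak is in the units of the authors' peak caller, and the read depth behind it is unknown. All p-values below compare classes of promoters or peaks within these libraries, and promoters are not replicates.

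The stretch between the 5' ends is shown for the pairs among the 12 strongest whose main summit lay in it, and for Psmb9/Tap1, a pair described before as bidirectional. Pairs are named with the minus-strand gene first. The letters are the plus strand of GRCm38.p6, the RefSeq build that corresponds to mm10, and capitals mark matches to the motifs named after them.
H2ac6/H2bc4, chr13:23683960-23684198: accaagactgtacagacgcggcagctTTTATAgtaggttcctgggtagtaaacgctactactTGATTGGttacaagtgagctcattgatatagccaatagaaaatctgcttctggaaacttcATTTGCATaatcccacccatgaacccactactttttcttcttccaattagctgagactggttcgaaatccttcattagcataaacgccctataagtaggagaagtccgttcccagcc
Ptcd2/Mrps27, chr13:99344679-99344766: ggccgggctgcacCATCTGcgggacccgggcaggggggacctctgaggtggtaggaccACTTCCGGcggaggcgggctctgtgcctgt
Dolk/Nup188, chr2:30286355-30286406: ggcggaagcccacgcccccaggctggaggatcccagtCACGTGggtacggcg
Alkbh1/Slirp, chr12:87443840-87443895: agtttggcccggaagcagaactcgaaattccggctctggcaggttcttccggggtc
Lrsam1/Rpl12, chr2:32961655-32961711: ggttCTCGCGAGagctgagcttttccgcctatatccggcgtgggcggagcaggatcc
Psmb9/Tap1, chr17:34187331-34187555: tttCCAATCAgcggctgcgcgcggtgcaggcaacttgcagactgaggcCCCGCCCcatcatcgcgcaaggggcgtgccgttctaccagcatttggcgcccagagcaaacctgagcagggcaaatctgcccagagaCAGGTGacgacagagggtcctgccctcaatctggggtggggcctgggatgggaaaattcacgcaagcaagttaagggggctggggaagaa

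The stretch of the histone pair had a GC content of 42.7% and held, all on the minus strand, an octamer (ATGCAAAT), the TBP site TATAAA and the NFY site CCAATCA. Ptcd2/Mrps27 held the E-box CATCTG and, on the minus strand, an ETS match (CCGGAAGT). Dolk/Nup188 held the E-box CACGTG, and Lrsam1/Rpl12 held the element CTCGCGAG. Psmb9/Tap1 held an NFY site, the SP/KLF match CCCGCCC and, on the minus strand, the E-box CACCTG. None of the 20 motifs searched lay between Alkbh1 and Slirp. For comparison, windows reaching 50 bp to either side of every protein-coding 5' end of the mm9 build held CATCTG at 4.6%, CACGTG at 3.32% and CACCTG at 6.73%. They held the ETS match at 3.16%, the NFY site at 2.68%, the octamer at 0.383%, the TBP site at 5.17%, the element of Lrsam1/Rpl12 at 0.659% and the SP/KLF match at 18%.

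Divergent pairs held a TCF12 peak more often than single promoters. Of 730 pairs, 623 (85.3%, Wilson 95% interval 82.6 to 87.7) had at least 1 summit within 1 kb of both 5' ends, against 6524 of 18013 single promoters (36.2%, 35.5 to 36.9). Over all 20364 protein-coding 5' ends, the share with a summit within 1 kb was 41.6%. The odds ratio was 10.3 (95% interval 8.33 to 12.6, adjusted p = 1.20917e-158, n = 730 pairs and 18013 single promoters, logistic model with a likelihood-ratio test and Benjamini-Hochberg adjustment over 6 comparisons). If single promoters were drawn independently in pairs, 59.3% would have a summit at either. The stretch searched was not longer at pairs, since a summit had to lie near both ends. Pairs whose 5' ends cross, which the rule leaves out, held a summit at 324 of 412 (78.6%). On the mm9 list the odds ratio was 6.66, and with summits within 500 bp it was 6.82.

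The distance between the 5' ends of a pair had quartiles at 48 and 238 bp. The share with a summit was 88.7% for 364 pairs at most 100 bp apart, 86.6% for 157 pairs up to 200 bp, 85.9% for 78 pairs up to 300 bp and 85.1% for 67 pairs up to 500 bp. It was 62.5% (50.2 to 73.3) for the 64 pairs over 500 and up to 1000 bp apart. The stretch within 1 kb of both 5' ends was shorter at these wide pairs, with a median of 1280 bp, against 1953 bp at pairs at most 100 bp apart.

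Promoter sequence moved with the class. RefSeq windows reach from 250 bp before to 50 bp after a RefSeq promoter start. For each gene the window whose start lay nearest to its 5' end was used, with no limit on that distance. In these windows pairs had a median GC content of 61.3% and a CpG observed over expected ratio of 0.832, against 55.7% and 0.534 at single promoters. With GC content as a covariate the odds ratio was 8.38, and with GC content and the CpG ratio it was 5.21, and both remained past the threshold. In each 5-point bin of GC content from 45% to 75%, pairs had a summit more often than single promoters. From 60% to 65% GC, for example, 144 of 162 pairs (88.9%) had one, against 1169 of 2072 single promoters (56.4%). Drawn in pairs from single promoters weighted to the GC content of the pairs, 71.2% would have a summit at either. Sequences were at hand for 671 of the 730 pairs and 14474 of the single promoters.

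**Figure D1:**
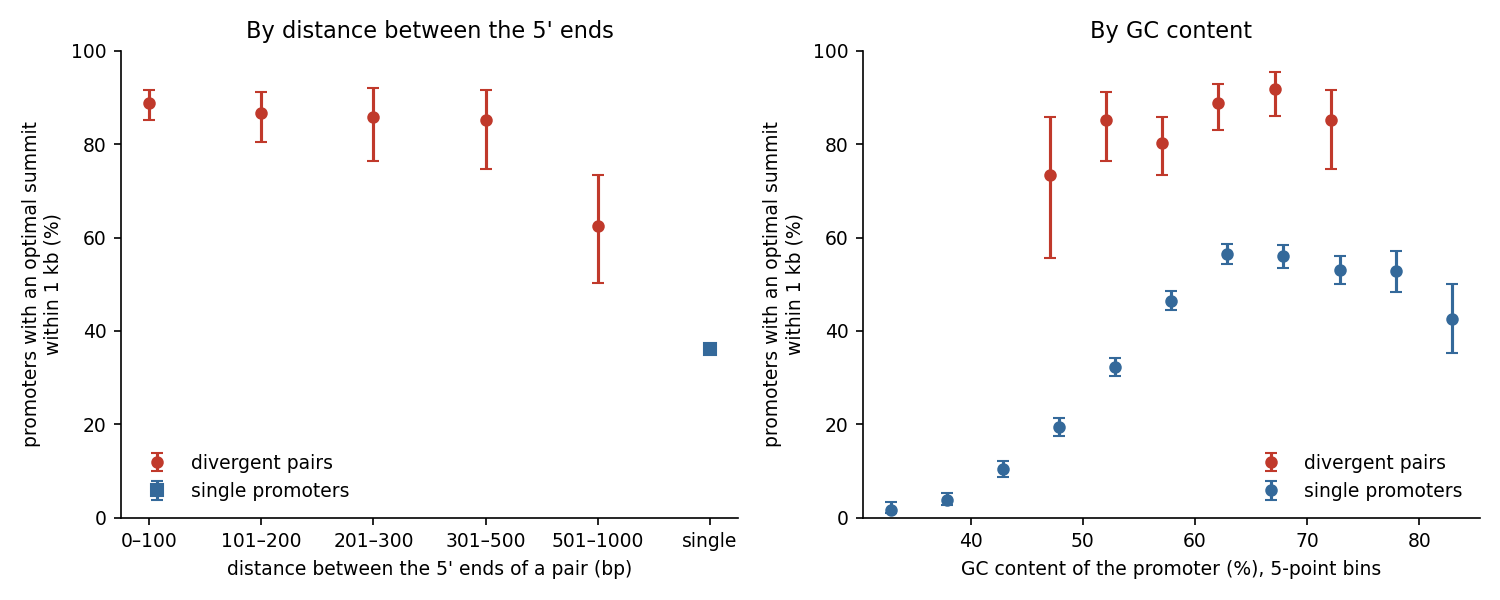
Share of promoters with an optimal TCF12 summit within 1 kb, in percent with Wilson 95% intervals, by the distance between the 5' ends of a pair (left, with all single promoters at the right edge) and by GC content of the promoter (right). Pairs up to 500 bp apart lie between 85.1% and 88.7%, pairs over 500 bp apart at 62.5% and single promoters at 36.2%, and pairs lie above single promoters in each of the 5-point bins from 45% to 75% GC, those with at least 20 pairs.

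The peaks at pairs were only slightly stronger. Their median signal was 47.3 (quartiles 28.9 and 71.5, n = 885 peaks), against 43.6 (26.0 and 69.3, n = 8814) at single promoters. The mean log2 difference was 0.08 (SE 0.037, 95% interval 0.01 to 0.16, adjusted p = 0.0283, n = 885 and 8814, linear model with errors clustered by promoter). The quartiles of the classes overlapped. In the replicate lists at the same peaks, the medians in replicate 1 were 31.1 at pairs and 28.3 at single promoters, a log2 difference of 0.06 (SE 0.036, unadjusted p = 0.0825, n = 9644 peaks). In replicate 2 they were 20.1 at pairs and 18.4 at single promoters, a difference of 0.14 (SE 0.040, unadjusted p = 0.000399, n = 9575 peaks). The difference did not pass the threshold at an IDR of 0.01 or less (log2 difference 0.04, adjusted p = 0.408, n = 722 and 6960) or on the mm9 list (0.04, adjusted p = 0.236, n = 708 and 6834). With the strongest summit of each promoter alone the log2 difference was 0.15, as it was on the conservative list.

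Nearly all peaks at pairs overlapped, by at least 1 bp, a peak in the relaxed list of each replicate, 879 in replicate 1 and 876 in replicate 2. The optimal list was itself derived from these replicates, so such overlap is not a separate test. Both lists held 871 of the 885 (98.4%), against 8651 of 8814 (98.2%) at single promoters. Replicate 1 gave the higher signal at 681 of the 871 (78.2%), against 80.5% at single promoters. The median log2 ratio of replicate 1 to replicate 2 was 0.54 at pairs and 0.61 at single promoters, and the mean difference was -0.08 (SE 0.033, adjusted p = 0.0283, n = 871 and 8651, linear model clustered by promoter). It did not pass at an IDR of 0.01 or less (-0.06, adjusted p = 0.127, n = 718 and 6918). A replicate value was that of the overlapping replicate peak whose summit lay nearest to the optimal summit. Of the 885 peaks, 167 shared such a replicate peak with a neighbour at the same pair. Peak widths had a median of 384 bp in each class and did not pass the test (log2 difference -0.002, 95% interval -0.024 to 0.021, adjusted p = 0.886, n = 885 and 8814).

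**Figure D2:**
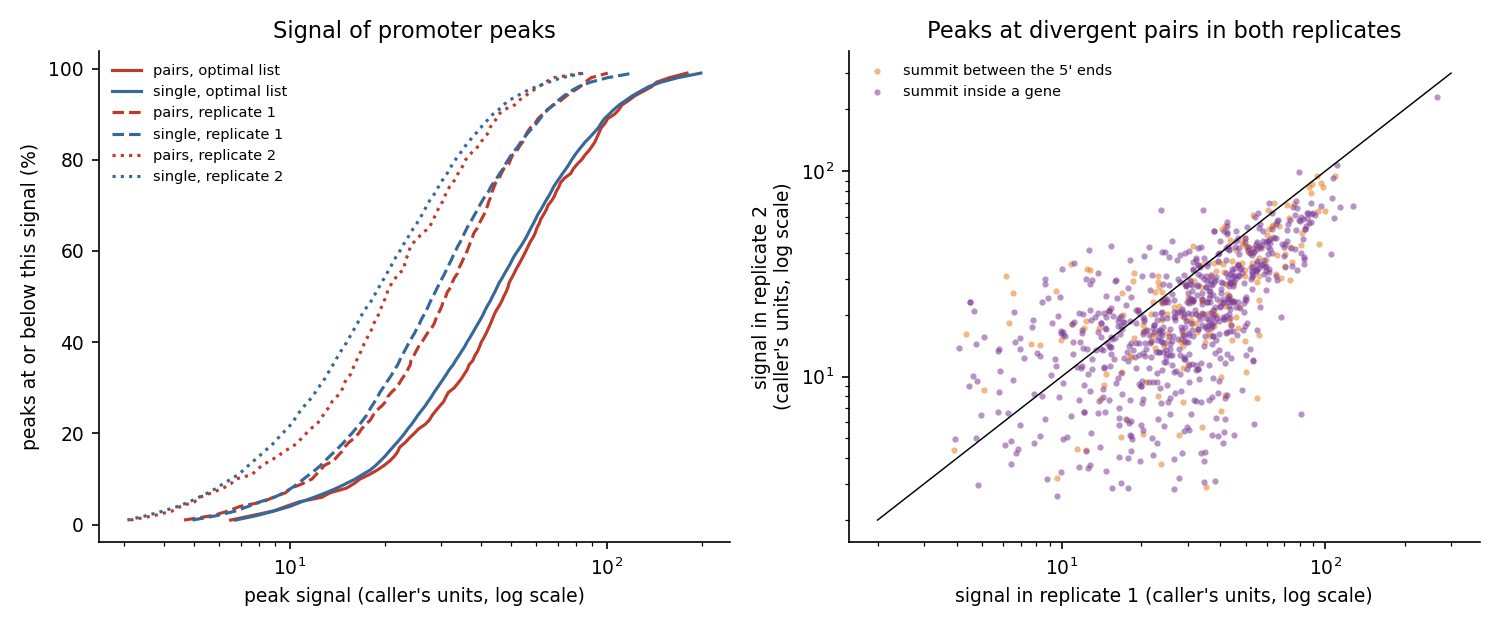
Left, cumulative share of promoter peaks by signal in the caller's units (log scale) for divergent pairs and single promoters, in the optimal list and in each replicate. Right, signal of each pair peak in replicate 1 and replicate 2 (log scales, line of equal values); most points lie below the line, with replicate 1 higher at 681 of 871 peaks.

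The strongest peak at any pair lay at Bag5 and Coa8, which encode a co-chaperone of HSP70 and an assembly factor of cytochrome c oxidase. Its signal was 496, with 264 in replicate 1 and 229.9 in replicate 2, at chr12:111712981-111713394. The 5' ends lie 12 bp apart and the summit was 78 bp inside Bag5. The next peak, at Alg3 (a mannosyltransferase of N-glycan synthesis) and Eef1akmt4 (a lysine methyltransferase), had a signal of 215, with 111 in replicate 1 and 108 in replicate 2. All other peaks at pairs were weaker than these.

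The other 10 of the 12 strongest pairs had main peaks with signals from 177 to 200.2. Among them were H2ac6/H2bc4, which encode core histones H2A and H2B (200.2, with 109 in replicate 1 and 94.9 in replicate 2), and Rps28/Ndufa7, a ribosomal protein and a subunit of respiratory complex I (199.8, with 107 and 92.2). Mrpl32/Psma2, a protein of the mitochondrial ribosome and a proteasome subunit, had 193, with 128 in replicate 1 and 67.8 in replicate 2. Ptcd2/Mrps27, both acting on mitochondrial RNA or ribosomes, had 187, with 98.4 and 83.9. Replicate 1 was higher at these 4 pairs.

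Dolk/Nup188, a dolichol kinase and a nuclear pore protein, had a signal of 185 and replicate values of 96.6 and 88.0. Eif2b1/Gtf2h3, subunits of a translation initiation factor and of TFIIH, had 179.6, with 113 and 66.9. Alkbh1/Slirp had 179.6, with 92.6 in replicate 1 and 94.5 in replicate 2, and Glod4/Mrm3 had 179, with 79.7 and 99.3. Replicate 2 was the higher at Alkbh1/Slirp and Glod4/Mrm3. Lrsam1/Rpl12, a ubiquitin ligase and a ribosomal protein, had 179, with 89.0 and 86.5, and Dand5/Gadd45gip1 had 177, with 106 and 73.9. Across all pairs with a peak of their own, the strongest peak had a median signal of 59.0, with quartiles at 42.2 and 88.2 (n = 616 pairs).

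**Figure D3:**
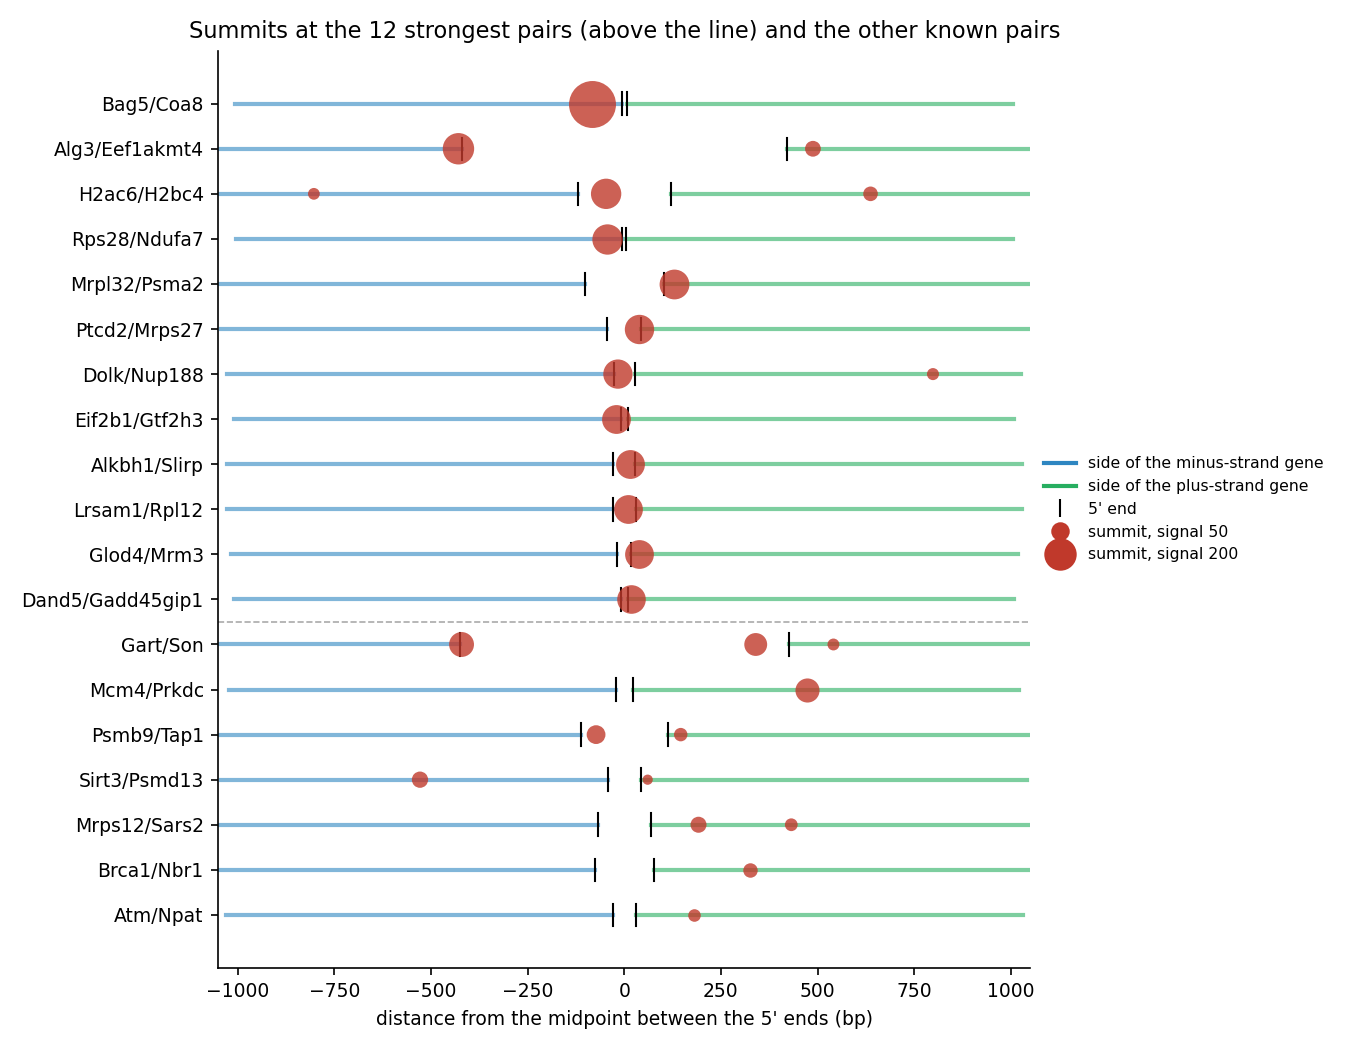
Summits of peaks at the 12 strongest divergent pairs (above the dashed line) and the 7 pairs known as bidirectional, by distance in bp from the midpoint between the 5' ends, with the area of a point rising with signal. The main summit lies within 100 bp of a 5' end at all of the 12 strongest pairs, and 450 bp inside Prkdc at Mcm4/Prkdc and 486 bp inside Sirt3 at Sirt3/Psmd13.

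Of the 885 summits at pairs, 187 (21.1%) lay between the 5' ends, 323 (36.5%) inside the minus-strand gene and 375 (42.4%) inside the plus-strand gene. The stretch between the 5' ends made up a mean of 10.6% of the bases within 1 kb of both, over the same 885 peaks. The share of summits between the 5' ends was 15.7% for pairs at most 100 bp apart and 35.6% for pairs over 500 bp apart. Summits between the ends had a median signal of 54.7 (quartiles 39.9 and 90.6), and those inside a gene 44.3 (27.5 and 69.0), values given as a description. In 660 of 871 peaks (75.8%), the summits of both replicates fell in the same of these 3 positions, and the replicate summits lay a median of 39 bp apart.

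The rule sets where a summit at a pair can lie, since it has both 5' ends to be nearest to and only part of the gap between them as upstream room. The distances and upstream shares here are therefore a description, and nothing is read from their difference between the classes. The median distance to the nearest 5' end was 66 bp at pairs and 121 bp at single promoters, and 375 of the 885 summits (42.4%) lay within 50 bp, against 2509 of 8814 (28.5%). From 1 to 200 bp downstream lay 56.6% of the summits at pairs, against 35.5% at single promoters. Upstream of the nearest 5' end lay 184 (20.8%), against 3531 (40.1%), an odds ratio of 0.393 (95% interval 0.332 to 0.465, adjusted p = 4.85705e-27, n = 885 and 8814, logistic model clustered by promoter). Among pairs over 300 bp apart alone, where more of that room exists, the odds ratio was 0.724 (p = 0.0782, n = 138 and 8814) and did not pass. With crossing 5' ends counted as pairs it was 0.844 (adjusted p = 0.0192, n = 1336 and 8814).

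**Figure D4:**
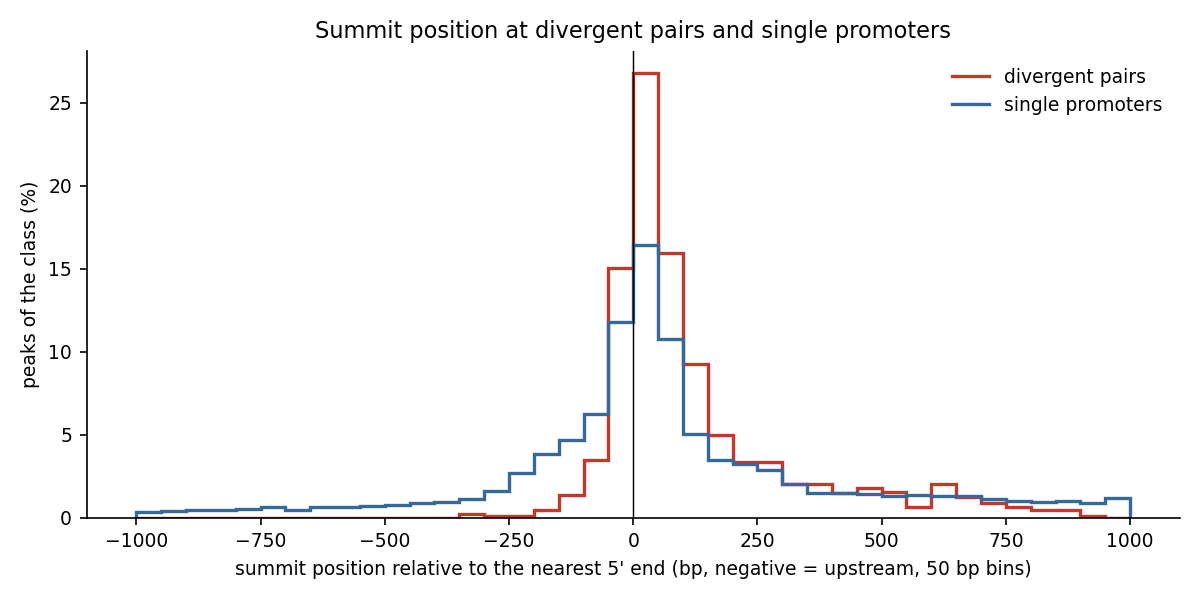
Position of each summit relative to the nearest 5' end, in bp along the direction of transcription (negative values upstream), as percent of the peaks of each class in bins of 50 bp. Pairs have 20.8% of their summits upstream and single promoters 40.1%.

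Pairs with a peak often had more than 1. There were 386 pairs with 1 summit and 36 with 3, and 237 of 623 (38%) had at least 2, against 1966 of 6524 single promoters (30.1%). The odds ratio was 1.42 (95% interval 1.20 to 1.69, adjusted p = 0.000119, n = 623 and 6524, likelihood-ratio test). At an IDR of 0.01 or less it was 1.13 and did not pass (adjusted p = 0.354, n = 582 and 5689). Of 197 pairs with exactly 2 summits counted at them, 51.3% had 1 in each gene, 60 had 1 between the 5' ends and 1 in a gene, 29 had both in the same gene and 7 had both between. These summits lay a median of 322 bp apart, against 260 bp at the 1605 single promoters with 2.

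The pairs with 3 summits and the strongest peaks were H2ac6/H2bc4, Wrap53/Trp53, Gart/Son, Nup88/Rpain and Mfap1a/Wdr76. At H2ac6/H2bc4 the main summit, 73 bp upstream of H2ac6, was flanked by weak summits 683 bp inside H2ac6 (19.9) and 517 bp inside H2bc4 (37.2). At Wrap53/Trp53, which encode a telomerase factor and the tumour suppressor p53, the main summit was 11 bp inside Trp53 with a signal of 135, with 83.9 in replicate 1 and 52.0 in replicate 2. Gart/Son, a purine synthesis enzyme and a splicing factor 852 bp apart, had a summit next to each 5' end, of 131 at 5 bp upstream of Gart and 109 at 86 bp upstream of Son. The replicates gave 81.3 and 50.1 at the peak next to Gart and 73.3 and 42.6 at that next to Son, in the order replicate 1 and replicate 2.

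Nup88/Rpain, a nuclear pore protein and a partner of replication protein A, had 100.4 at 35 bp inside Nup88, with 55.9 and 43.3 in the replicates. Mfap1a/Wdr76 had 95.2 at 15 bp upstream of Mfap1a, with 49.3 and 44.1. At the closest pair with a peak, Tti1/Rprd1b, both 5' ends are the same position, and the stronger of its summits had 38.2, with 31.7 in replicate 1 and 7.69 in replicate 2. The next closest pairs are 1 bp apart and tie, and the strongest signals among them were 88.0 at Capza1/St7l (51.9 and 39.7) and 87.0 at Tcta/Rhoa (43.3 and 41.3).

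All 7 of the listed bidirectional pairs that the annotation holds as divergent had a peak, as did 85.3% of all 730 pairs. Mcm4/Prkdc, a replicative helicase subunit and the catalytic subunit of DNA-PK, had a signal of 122, with 83.0 in replicate 1 and 37.4 in replicate 2. Psmb9/Tap1, a subunit of the immunoproteasome and a peptide transporter of antigen presentation, had 69.2 at 40 bp upstream of Psmb9, with 56.1 and 15.9, the largest ratio of replicates among these pairs. Sirt3/Psmd13 had 49.1 (25.6 and 27.8), and Mrps12/Sars2 had 47.3 (30.4 and 16.0).

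The lowest signals among the 7 were at Brca1 and Atm. Brca1/Nbr1, a repair factor and an autophagy receptor, had 36.2 at 249 bp inside Nbr1, with 21.5 in replicate 1 and 9.42 in replicate 2. Atm/Npat, a DNA damage kinase and a regulator of histone genes, had 24.6 at 151 bp inside Npat, with 9.2 and 18.3. It held no summit among as many of the strongest peaks of replicate 1 alone. A further 6 listed pairs have crossing 5' ends, and 5 of those had a peak within 1 kb of both ends, from 44.2 at Fen1/Tmem258 to 98.6 at Surf1/Surf2, with none at Col4a1/Col4a2.

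Divergent pairs hold 7.14% of all autosomal protein-coding genes, and from 16.9% to 37.3% of the genes in 8 of the 9 lists examined. Of all 1453 genes in such pairs, 1239 (85.3%) had a summit there, and the counts below are to be read against that share. The strongest peaks of these genes had a median of 59.1, against which the medians of the lists are to be read. Of 78 mitochondrial ribosomal protein genes, 21 (26.9%) were in a pair and all 21 had a summit there, against 39 of 45 (86.7%) of that list at single promoters. Their strongest peaks had a median of 97.2, and were led by Mrpl32, Mrps27 and Mrps18b (157 at Mrps18b/Ppp1r10). Of 93 genes for subunits and assembly factors of oxidative phosphorylation, 30 were in a pair and 28 had a summit (median strongest peak 74.1). At single promoters 47 of 59 (79.7%) had one. After Ndufa7, the strongest were Sdhd of complex II (118) and Atp5h of ATP synthase (116).

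Of 77 cytoplasmic ribosomal protein genes, 13 were in a pair and 12 had a summit (median strongest peak 107), led by Rps28, Rpl12 and Rpl7a (156), against 55 of 62 (88.7%) at single promoters. Of 67 histone genes, 25 (37.3%) were in a pair and 20 (80%) had a summit (median 105), against 33 of 41 (80.5%) at single promoters. The strongest peaks lay at H2ac6/H2bc4, H2ac15/H2bc15 (171) and H2ac8/H2bc8 (137). Where both genes of a pair were in a list, their peak counted for each, as at all histone pairs with a summit, Mcm4/Prkdc and Mrpl46/Mrps11. Histone genes are near-identical copies, so the placement of their reads is uncertain. Of 50 proteasome genes, with assembly and activator proteins, 9 were in a pair and 8 had a summit (median 61.2). Psma2, Psmb3 (83.4) and Psmc2 (83.3) led these, and 34 of 39 at single promoters had a summit.

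All 22 paired genes of 84 for DNA replication and repair had a summit, led by Ddb1 (145), Mcm4 and Prkdc, against 45 of 53 at single promoters. So did all 14 paired genes of 50 for chaperones, led by Bag5, Dnajc8 (146) and the endoplasmic reticulum chaperone Hsp90b1 (117), against 27 of 30 at single promoters. All 8 paired genes of 37 for aminoacyl-tRNA synthetases had one too, with lower signals of 67.5 at Kars, 61.2 at Fars2 and 55.6 at Yars, against 23 of 25 at single promoters. None of 46 genes of B cell identity and signalling lay in a divergent pair, and 35 of these (76.1%) had a summit at their single promoter. In the lists of 10 or more genes in pairs, shares at single promoters were already 79.7% or more, far above the 36.2% over all single promoters, so the lists show smaller differences between pairs and single promoters than all genes do.

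The 107 pairs without an optimal summit included Ndufb3, Atp5pb, Rps2 and Psma7 from these lists. In 66 of them (61.7%), the relaxed list of the pooled data, which the authors gave with background peaks, held a summit near both 5' ends, against 4135 of 11489 single promoters without an optimal summit (36%). The highest relaxed signals were 58.2 at Recql/Golt1b, 56.8 at Tmed5/Ccdc18 and 56.5 at Atp5pb/Wdr77, above the median of the optimal peaks at pairs. The 41 pairs with neither included the imprinted genes Sgce/Peg10 and Peg3/Usp29, the olfactory receptors Olfr181/Olfr183, the heat shock genes Hspa1a/Hspa1l and Hnrnpa2b1/Cbx3. Those pairs were picked after their values were seen. Pairs without a summit had a median GC content of 58.7%, against 61.7% for those with one.

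At the limits of the rule, the widest pair inside was Pcgf2/Psmb3, 1000 bp apart, with a signal of 83.4, and the closest outside was Myd88/Acaa1a, 1010 bp apart, with no summit near both ends. The summit farthest from its farther 5' end, at 993 bp, was one of 28.3 at Tbc1d10c/Ppp1ca, and the nearest outside, at 1003 bp, was one of 40.2 at H2bc9/H3c7.

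Motifs around the summits could be compared on the mm9 build, with 708 summits at pairs and 6834 at single promoters from the authors' separate mm9 list, made from both replicates together. Of 20 motifs, searched on both strands within 50 bp of the summit, 1 (5%) was more frequent and 1 (5%) less frequent at pairs at an adjusted p below 0.05. The YY1 motif AAGATGGCG was held by 48 summits at pairs (6.78%, 5.15 to 8.87), against 252 at single promoters (3.69%). The odds ratio was 1.9 (95% interval 1.38 to 2.61, adjusted p = 0.00442, n = 708 and 6834, logistic model with adjustment over the 20 motifs). Windows 300 bp to either side of pair summits held it at 0.424%, and windows at all 5' ends at 1.32%. YY1 is a zinc finger factor whose motif is known to lie just downstream of transcription starts. At pairs, 47 of the 48 motifs lay downstream of the nearest 5' end, at a median of 39 bp, and 44 had the orientation of that gene, against 217 and 200 of 252 at single promoters. The E-boxes CACCTG and CAGCTG at pairs also lay mostly downstream, at 37 of 42 summits (88.1%) and 35 of 44. At single promoters they did so at 50.8% and at 304 of 531. Of all mm9 summits, 27.1% lay upstream of the nearest 5' end at pairs and 46% at single promoters. A mostly downstream position was thus that of pair summits as a whole, and the E-box counts are to be read against that share. Not all motifs had it. At pairs the ETS match CCGGAAGT lay downstream at 26 of 51 summits, the NFY site at 4 of 19 and GAGGAAGT at 1 of 3. The rule leaves less upstream room at pairs, so nothing is read from the contrasts with single promoters.

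The YY1 motifs of the 5 strongest mm9 summits at pairs that hold it are shown with 10 bases to either side in the motif's orientation, and the motif in capitals.
Dolk/Nup188, inside Dolk, mm9 chr2:30141822-30141850, minus strand: tggggctgtcAAGATGGCGctgccctggt
Iqcg/Rpl35a, inside Rpl35a, mm9 chr16:33056565-33056593, minus strand: cacaggcgccAAGATGGCGgaaagaggaa
Ranbp10/Tsnaxip1, inside Ranbp10, mm9 chr8:108351069-108351097, minus strand: agctccctccAAGATGGCGgcggcgacgg
Kctd10/Ube3b, inside Ube3b, mm9 chr5:114830844-114830872, plus strand: cacccggggcAAGATGGCGgccgggcttc
Tmem93/Tax1bp3, inside Tmem93, mm9 chr11:72990496-72990524, minus strand: cctccagcgcAAGATGGCGgcgcgggact
In 4 of these 5 the motif pointed the way its gene is transcribed, the exception being Rpl35a. The motif centres lay from 0 to 36 bp from the summit, and the signals of these mm9 peaks ranged from 191 to 223.

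E-boxes, the motif class that E proteins bind, were no more frequent at pairs. CAGCTG or CACCTG lay within 50 bp of 84 summits at pairs (11.9%, 9.69 to 14.5), against 1018 at single promoters (14.9%), an odds ratio of 0.769 (unadjusted p = 0.0258, n = 708 and 6834). With 5' ends at most 500 bp apart the odds ratio was 0.8, and the unadjusted p was no longer below 0.05. The windows 300 bp to either side held either form at 12.1% for pairs and 11.7% for single promoters, and windows at all 5' ends at 12.8%. CAGCTG alone was at 6.21% of pair summits and 7.77% of single promoter summits (adjusted p = 0.445, n = 708 and 6834). CACCTG alone was at 5.93% of pair summits and 7.86% of single promoter summits (adjusted p = 0.290, n = 708 and 6834). Neither passed in these windows. CACGTG, the form bound by MYC and USF, was at 6.07% of pair summits and 4.96% of single promoter summits (adjusted p = 0.445, n = 708 and 6834). In windows reaching 100 bp to either side, CACCTG (odds ratio 0.735) and CATCTG (0.638) were called less frequent at pairs. The RefSeq mm10 windows of promoters with a peak were also searched, at pairs in the window of the plus-strand gene alone. In them CAGCTG was at 10% of pairs and 14.4% of single promoters (adjusted p = 0.0198, n = 538 and 5263). CACCTG was at 11.9% of pairs and 16.8% of single promoters there (adjusted p = 0.0151, n = 538 and 5263), so both were lower at pairs in that wider window. Of the 20 motifs, 3 (15%) were more frequent and 2 (10%) less frequent at pairs in those windows. The more frequent ones were the ETS match CCGGAAGT (15.8% of pairs, 9.29% of single promoters, odds ratio 1.83, adjusted p = 0.00013, n = 538 and 5263), the element CTCGCGAG (4.28% and 2.01%, adjusted p = 0.0151, n = 538 and 5263) and YY1 (6.13% and 3.59%, adjusted p = 0.0257, n = 538 and 5263).

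The strongest mm9 summits at pairs with CAGCTG show the motif in capitals with 10 bases to either side.
Mfap1a/Wdr76, inside Mfap1a, mm9 chr2:121332363-121332388: gtgccccacaCAGCTGcgcaactgac
Slc35a5/Atg3, inside Atg3, mm9 chr16:45159041-45159066: ggccaggtgaCAGCTGggccgggcct
Palb2/Dctn5, between the 5' ends, mm9 chr7:129276478-129276503: tgcgcacgcgCAGCTGgagactgccg
The signals of these peaks were 155, 151 and 133.

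The motif called less frequent at pairs was the ETS form GAGGAAGT that PU.1 binds, at 3 summits at pairs (0.424%) against 120 at single promoters (1.76%), an odds ratio of 0.238 (95% interval 0.0755 to 0.751, adjusted p = 0.0178, n = 708 and 6834). It rests on 3 summits, and the call was lost in windows of 25 bp, in windows of 100 bp and in the RefSeq mm10 windows. By position, the 514 pair summits inside a gene held the YY1 motif at 8.95% (6.78 to 11.7) and the 194 between the 5' ends at 1.03% (0.283 to 3.68). The ETS match CCGGAAGT was at 5.84% inside a gene and 10.8% between, and the SP/KLF match at 18.1% and 26.3%. CAGCTG or CACCTG was at 12.5% inside a gene and 10.3% between the 5' ends, with overlapping intervals. Median GC content of the windows was 65.3% in pairs and in single promoters.

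**Figure D5:**
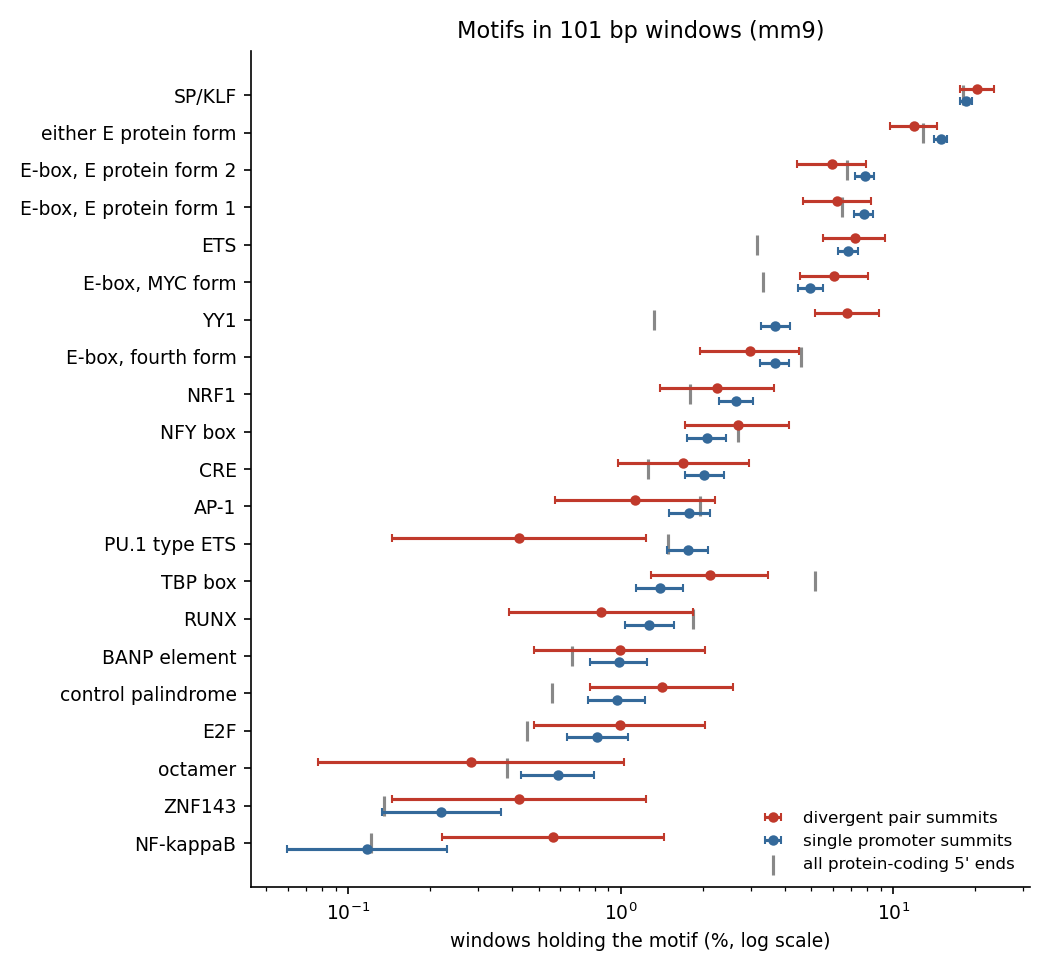
Share of windows, reaching 50 bp to either side of mm9 summits, that hold each motif (percent, log scale, Wilson 95% intervals) at divergent pairs and single promoters, with the share at all protein-coding 5' ends as ticks. E protein form 1 is CAGCTG, form 2 is CACCTG, the MYC form CACGTG and the fourth form CATCTG; YY1 is at 6.78% of pair summits and 3.69% of single promoter summits.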

How the data were processed

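TCF12 ChIP-seq peaks of 2 biological replicates of CH12.LX, which form 1 group, were used as the authors deposited them: per the file headers and labels, optimal, conservative and relaxed lists on mm10 and a list on mm9. The signal and the score are those of the authors' peak calling and IDR step, deposited with no stated scaling, and the sources used here name no aligner or caller. The members and gene lists were chosen with earlier results of these data known. Of 20665 autosomal RefSeq protein-coding genes (GRCm38.p6), 20364 had a strand, from the RefSeq promoter table or else GENCODE vM1, and were used with the end of the gene span as 5' end. Scores from 830 upward stood for an IDR of 0.01 or less. No coordinate was converted between builds, so sequence at summits came from the mm9 genome with its own list and GENCODE vM1.

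Python 3.11.15 with statsmodels 0.14.6 gave logistic and linear models, with errors clustered by promoter for signal, position, width and replicate ratio but not for motifs. Tests on simulated data covered only the logistic model of the share with a peak and the linear model of signal. Benjamini-Hochberg adjustment ran over 6 comparisons and over 20 motifs, searched as letters on both strands. Those were E-boxes (CAGCTG and CACCTG of E proteins, CACGTG of MYC, and CATCTG), ETS (CCGGAAGT), PU.1 (GAGGAAGT), CRE (TGACGTCA), YY1 (AAGATGGCG), NRF1 (GCGCATGC), NFY (with CCAATCA), SP/KLF (with CCCGCCC), E2F (TTTCCCGC), ZNF143 (ACTACAATT), BANP (CTCGCGAG), TBP (with TATAAA), octamer (ATGCAAAT), AP-1 (with TGANTCA), NF-kappaB (GGGACTTTC), RUNX (with TGTGGTT) and a control (the palindrome CGATCG). Intervals cover counting error only. Named are the 12 strongest pairs, known bidirectional pairs, the closest pairs, those with most summits, up to 3 genes per list, and up to 4 list genes without a peak.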

Additional observations from a re-analysis of the deposited data

How the results depend on the processing

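The share of promoters with a peak stayed higher at pairs and past the threshold in all 12 alternatives run, with odds ratios from 5.21 to 12.4. No paired analysis was possible because there is 1 group. Read depth is unknown, so what depth limits cannot be given. At an IDR of 0.01 or less, differences did not pass for signal (log2 0.0353), for 2 or more summits (odds ratio 1.13) and for the replicate ratio (-0.0641). The signal difference also did not pass with 5' ends at most 500 bp apart (0.077), with summits within 500 bp (0.0862), on the mm9 list (0.0364) and with strands from RefSeq alone (0.0726). The replicate ratio did not pass with summits within 500 bp (-0.0603) or RefSeq strands alone (-0.0744), and the upstream share did not for pairs over 300 bp apart (odds ratio 0.724). The alternatives with RefSeq strands alone, pairs over 300 bp apart, crossing 5' ends, summits within 50 bp of a 5' end left out (upstream odds ratio 0.17, fixed in part by the rule), the CpG ratio, the GC bins and the mm10 motif windows were chosen after seeing the data. Peak width, not past the threshold, changed sign at an IDR of 0.01 or less (0.000635), without replicate 2 (0.0108, against -2.03e-06 without replicate 1), with summits within 500 bp (0.000878) and with crossing 5' ends (0.00445), and passed on the mm9 list (-0.0768). The cause was not tested.

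The motifs called more frequent at pairs numbered 2 in windows of 100 bp and 3 in the mm10 windows. Those less frequent numbered 2 in windows of 100 bp (the E-boxes CACCTG and CATCTG), 0 in windows of 25 bp and 2 in the mm10 windows. YY1 passed as more frequent in each. Odds ratios of uncalled motifs that changed side of 1 were, in windows of 100 bp, CACGTG 0.919, NRF1 1.07, SP/KLF 0.965, the BANP element 0.939 and the control palindrome 0.957, and in windows of 25 bp, CRE 1.16 and the NFY site 0.831. In the mm10 windows they were CACGTG 0.936, CRE 1.24, NRF1 1.01, SP/KLF 0.875 and the TBP site 0.673, and for 5' ends at most 500 bp apart the BANP element 0.802. Of 19 named pairs, 17 held a summit within 500 bp of both 5' ends, all but Alg3/Eef1akmt4 and Gart/Son.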
